A study of Homo sapiens with 14 samples.

Results

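In HepG2 cells transfected with the microRNA miR-124, 144 of the 13137 genes measured were on average at least halved relative to control cells between 16 and 32 h after transfection. They were selected on that measure, as the mean over 16, 24 and 32 h of the log2 ratio of the miR-124 array to the control array of the same time, at −1 or lower. Halved here means a ratio of −1 or lower. Each gene was represented by 1 probe set, the one with the highest mean over the 14 arrays, and genes with a mean log2 value of 6.18 or lower were not used. The cutoff was met by 160 genes, 1.22% of those measured, and 16 of these were left out, because the selection named 17 genes to leave out, 1 of which did not meet the cutoff. The ratios at 16, 24 and 32 h are therefore given as a description only, and tests were made at 4, 8, 72 and 120 h, which the selection did not use.

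HepG2 is a human liver tumour line that grows in culture and keeps many hepatocyte genes on. One group of 7 arrays came from HepG2 cells transfected with miR-124 and the other 7 from HepG2 cells given a negative control transfection, with 1 array of each at 4, 8, 16, 24, 32, 72 and 120 h. Total RNA was measured on whole-genome expression arrays, and all values are log2 levels from robust multi-array averaging (RMA), a method that corrects background, normalizes across arrays and summarises the probes of a probe set. A difference of 1 between 2 log2 values is a factor of 2, and levels of different genes are not compared, since probes differ in brightness. Whether each array had its own culture is not in the labels. The p-values therefore cover the spread among the 8 arrays tested and no more, and in RNA from whole cultures fewer cells of a kind and less RNA per cell cannot be told apart.

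MicroRNAs are short RNAs carried by Argonaute proteins, which pair through the microRNA's seed with sites that lie mostly in the 3′ untranslated regions of messenger RNAs. The bound messenger RNA is translated less and, in most cases, loses its poly(A) tail and is degraded, so direct targets become less abundant within hours, and genes that depend on those targets can follow later. miR-124 is abundant in neurons, where it keeps down many genes of non-neuronal cells.

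The arrays were alike, with correlations of 0.904 to 0.997 over all probe sets. The miR-124 array of 4 h was far from the others in the control probe sets, with an 18S ribosomal RNA value of 11.05 against 7.31 to 9.20 on the other 13 arrays and a poly-A spike value of 6.88 against 5.50 to 5.95. The gap between the 3′ and 5′ probe sets of ACTB, a sign of RNA integrity, was larger on the miR-124 array at 7 of 7 times, and at 120 h it was 0.411 against 0.102 on the control array. Its part in the results was not tested. All 8 hepatocyte markers with a usable probe set were above the floor (mean levels 10.9 to 13.9), whereas 3 of 5 blood markers, 5 of 8 fibroblast and endothelial markers and 3 of 6 neuron markers were. Their summed log2 level ranged from 16.16 to 16.33 on miR-124 arrays and from 16.19 to 16.47 on control arrays for hepatocyte markers, from 9.13 to 10.07 and 9.07 to 9.26 for blood, from 9.95 to 10.17 and 9.85 to 10.00 for fibroblast and endothelial, and from 11.83 to 12.12 and 11.92 to 12.19 for neuron markers.

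The cutoff fell within a continuous range of values. Just inside it were DNAJC1 (mean ratio −1.009), LPCAT3 (−1.005) and GCSH (−1.001), and just outside it PEA15 (−0.999), ITGB1 (−0.998) and CCDC28A (−0.995). With the cutoff at −0.8 there would be 231 genes and at −1.2 there would be 83. The 144 genes were somewhat brighter than the rest, with a median level of 9.0 (range 6.53 to 11.7) against 8.08 over all 13137 genes.

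The halved genes moved down together, step by step, and came part of the way back. Before the times of the selection, the median ratio was −0.06 (4 h) and −0.34 (8 h), then −0.91 (16 h), −1.36 (24 h) and −1.50 (32 h). It was lowest in the next sample, −1.79 (72 h), and ended at −0.68 (120 h). Over all 13137 genes the median stayed between −0.02 and 0.05 at the 7 times. None of the 144 was halved at 4 h, when 0% of all genes were, and 2 were at 8 h (0.0609% of all genes). Then 49 were halved at 16 h (0.495% of all genes), 139 by the 24 h array (1.44%) and 141 by that of 32 h (1.87%), 3 counts that the selection itself produced. At the times it did not use, 137 of the 144 were halved at 72 h, against 5.92% of all genes, and 24 of the 144 at 120 h, against 1.16% of all genes.

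**Figure D1:**
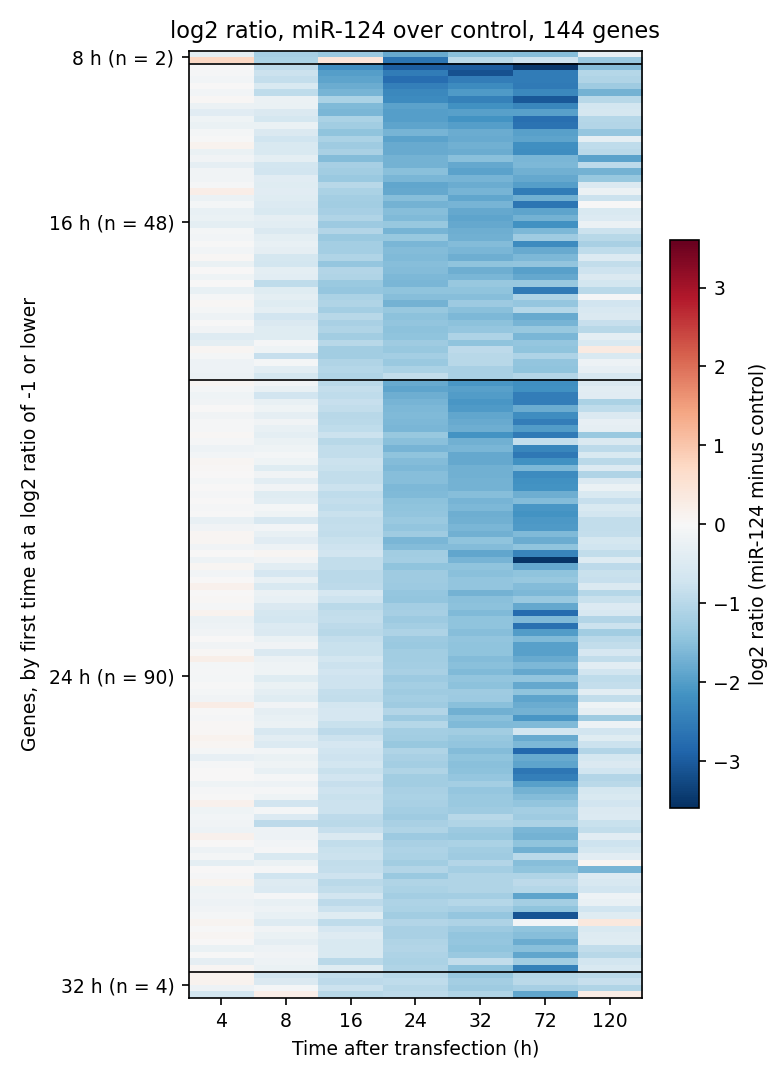
Log2 ratio of miR-124 to control for each of the 144 genes (rows, grouped by the time at which the ratio first reached −1 or lower) at the 7 times (columns), with the colour bar in log2 units. The columns of 24, 32 and 72 h are the darkest, and the column of 120 h is paler for nearly every gene.

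**Figure D2:**
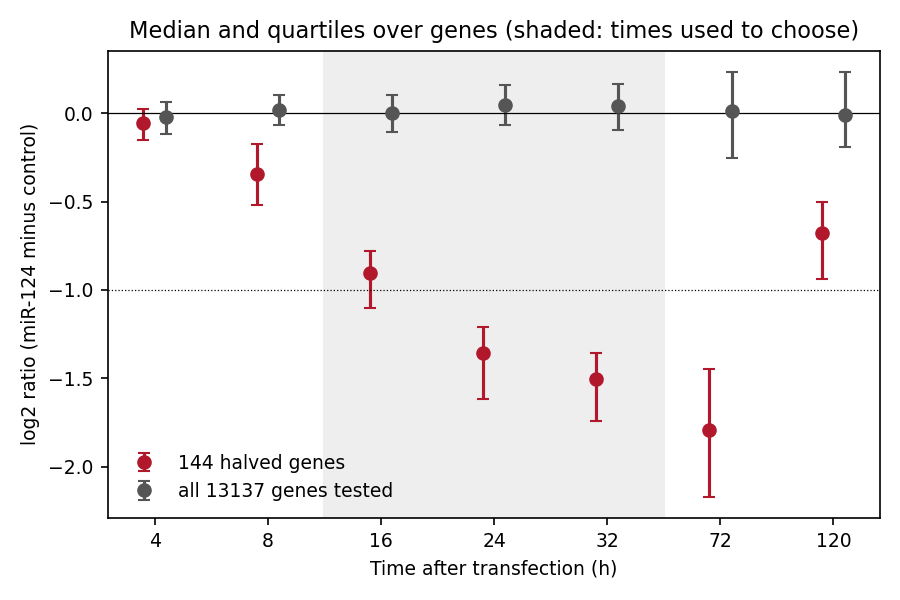
Log2 ratio of miR-124 to control (vertical axis) against hours after transfection (horizontal axis), with the median and quartiles of the 144 halved genes and of all 13137 genes. The halved genes' median goes from −0.06 at 4 h to −1.79 at 72 h and −0.68 at 120 h, while that of all genes stays near 0.

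At 8 h, a time outside the selection, most of the genes were already below the control. The ratio was under 0 for 142 of the 144 (98.6%), against 43.05% of all genes, and 24 were lower by 1.5-fold or more, against 0.396% of all genes. These 24 made up 46.2% of the 52 genes lower by that much at 8 h and 16.7% of the halved genes. Another 7 of the 52 were among the genes left out. At 4 h only CEBPA was 1.5-fold lower or more, at −0.65. The test over 4 and 8 h together called 0 of 13137 genes (limma, adjusted p under 0.05, 0% of genes), with 24 genes lower and 22 higher at an unadjusted p under 0.05, and 5 of the 24 were among the 144. The count was also 0 under every alternative run.

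By the time of the first ratio of −1 or lower, most genes belonged to 2 steps, 16 and 24 h. COBLL1 and DSG2-AS1 reached it at 8 h. Another 48 genes followed at 16 h, then 90 on the arrays of 24 h and 4 on those of 32 h. The 4 late ones were SPAG16, ABHD3, ITPR3 and CEBPA. With a fall of 1.5-fold as the mark in place of halving, 1 gene reached it at 4 h, then 24 on the arrays of 8 h, 112 on those of 16 h and 7 on those of 24 h, so that 137 of 144 had passed it by 16 h in place of 50. The lowest ratio of a gene came at 72 h for 95 genes, at 32 h for 31 and at 24 h for 15, while 2 were lowest at 120 h and 1 at 16 h.

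COBLL1, a relative of the actin nucleator Cobl, was the earliest gene with a steady course on the probe sets used. In the order 4, 8, 16, 24, 32, 72 and 120 h, which holds for every list of 7 levels here, its log2 level was 9.47, 8.53, 8.59, 8.39, 8.36, 8.46 and 9.20 on the miR-124 arrays and 9.78, 9.72, 9.91, 10.19, 9.88, 9.98 and 9.51 on the control arrays. Its miR-124 level dropped between 4 and 8 h, then stayed within 8.36 to 8.59 until 72 h, below every control array, and at 120 h its ratio was −0.30. Another COBLL1 probe set above the floor had a ratio of −0.89 at 8 h and so was not yet halved. DSG2-AS1, an RNA antisense to the desmosomal cadherin gene DSG2, reached the mark at 8 h on an irregular course, with levels of 6.85, 5.94, 6.57, 5.05, 6.41, 6.36 and 6.73 on the miR-124 arrays and 6.10, 7.09, 6.13, 7.67, 7.37, 7.12 and 8.06 on the control arrays. The miR-124 array was the higher one at 4 and 16 h, so the arms overlapped, and another probe set of this RNA gave a ratio of 0.20 at 72 h where the one used gave −0.76. Its membership is uncertain.

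The 10 genes with the lowest mean ratio included CD164, a sialomucin of the cell surface and lysosomes and a reported miR-124 target, GPAT3, which makes the first acylation of glycerol 3-phosphate on the way to triglycerides, and MAGT1, a subunit of the complex that attaches N-glycans. CD164 measured 11.73, 10.63, 9.40, 8.65, 8.62, 8.34 and 10.39 on the miR-124 arrays and 11.70, 11.58, 11.62, 11.61, 11.61, 11.82 and 11.92 on the control arrays. At −0.95 it was nearly halved already at 8 h, and from 8 h on every miR-124 array was below every control array. In 131 of the 144 genes every miR-124 level of 16 to 120 h was below all 7 control levels. The same count over all genes is not given, so the 131 are a description only. A gap of this kind was partly built in, here and in the other genes described, since levels of 16 to 32 h were used in the selection. The late effect of CD164, the mean ratio over 72 and 120 h, was −2.51 ± 0.47 (SE, n = 2 pairs, limma adjusted p = 0.0226). In every late effect here the mean is over 2 pairs. The SE pools the spread within the early and the late pairs, and limma adjusts it with that of all genes. GPAT3 measured 9.19, 8.77, 7.44, 6.91, 6.73, 6.50 and 7.36 on the miR-124 arrays and 9.24, 9.55, 9.42, 9.42, 9.85, 9.0 and 8.40 on the control arrays. The control level itself came down after 32 h, while the miR-124 arrays from 16 h on stayed below all 7 controls. Its late effect was −1.77 ± 0.36 (SE, n = 2 pairs, limma adjusted p = 0.0276). MAGT1 measured 11, 10.76, 9.92, 8.84, 8.61, 8.22 and 9.88 on the miR-124 arrays and 10.95, 10.98, 11.07, 11.10, 11.03, 11.29 and 10.87 on the control arrays. At 8 h its ratio was −0.22, and it was lowest at 72 h, with a late effect of −2.02 ± 0.45 (SE, n = 2 pairs, limma adjusted p = 0.0352).

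RWDD4, a protein with an RWD domain, measured 8.69, 7.86, 6.92, 5.95, 6.29, 6.36 and 7.38 on the miR-124 arrays and 8.80, 8.71, 8.83, 8.69, 8.80, 8.89 and 8.46 on the control arrays. It was lowest at 24 h, earlier than most, and its late effect was −1.80 ± 0.35 (SE, n = 2 pairs, limma adjusted p = 0.0255). TMEM263, a small membrane protein, measured 10.27, 9.66, 8.65, 7.80, 7.86, 7.52 and 8.94 on the miR-124 arrays and 10.26, 10.22, 10.43, 10.26, 10.13, 10.06 and 10.23 on the control arrays. The control arrays were nearly level, the miR-124 arrays from 8 h on were all below them, and the late effect was −1.91 ± 0.30 (SE, n = 2 pairs, limma adjusted p = 0.0163). A second TMEM263 probe set, also above the floor, gave 0.07 at 72 h and −0.06 at 120 h. MIGA1, which promotes mitochondrial fusion from the outer membrane, measured 7.14, 6.31, 5.86, 5.39, 5.74, 5.60 and 6.31 on the miR-124 arrays and 7.25, 7.23, 7.54, 7.71, 7.77, 7.92 and 8.02 on the control arrays. Its control level was higher at each later time from 16 h on, its miR-124 level stayed low, and the late effect was −2.01 ± 0.24 (SE, n = 2 pairs, limma adjusted p = 0.00825). Its probe set is of the kind that may bind other transcripts.

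LITAF, a protein of late endosomes and lysosomes, measured 11.68, 11.58, 10.39, 9.90, 9.67, 9.46 and 10.95 on the miR-124 arrays and 11.90, 11.82, 11.97, 11.84, 11.86, 11.82 and 11.62 on the control arrays. Its ratio was −0.24 at 8 h and already −1.59 at 16 h. The late effect was −1.51 ± 0.37 (SE, n = 2 pairs, limma adjusted p = 0.0444). GAS2L1, which links actin to microtubules, measured 7.92, 7.26, 6.28, 5.81, 5.84, 5.70 and 6.78 on the miR-124 arrays and 8.32, 7.80, 7.93, 7.79, 7.80, 7.64 and 7.43 on the control arrays. The miR-124 arrays from 8 h on were below all control arrays, and the late effect was −1.29 ± 0.29 (SE, n = 2 pairs, limma adjusted p = 0.0361). DEPDC1B, a protein with a DEP domain that is active in dividing cells, measured 9.87, 9.29, 8.73, 7.97, 7.99, 7.26 and 8.81 on the miR-124 arrays and 10.02, 9.93, 9.88, 9.96, 10.15, 9.97 and 9.84 on the control arrays. It also had no overlap between the arms from 8 h on, in part by selection. Its late effect was −1.87 ± 0.38 (SE, n = 2 pairs, limma adjusted p = 0.0278). CMTM6, a membrane protein that keeps PD-L1 at the cell surface, measured 10.86, 10.78, 9.90, 9.21, 9.09, 8.57 and 10.11 on the miR-124 arrays and 11.09, 11.01, 11.15, 11.12, 11.08, 11.24 and 11.17 on the control arrays. At 8 h its ratio was −0.23, from 16 h on its miR-124 arrays were below all control arrays, and its late effect was −1.86 ± 0.35 (SE, n = 2 pairs, limma adjusted p = 0.0226).

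Most of the 144 genes remained lower in the late window of 72 and 120 h, which the selection did not use. Here and below, a gene fell or rose in this window if its late effect was below or above 0 with a limma adjusted p under 0.05. By that mark 93 of the 144 (64.6%) fell and 0 rose, with a median effect of −1.21. Of all 13137 genes 810 (6.17%) fell and 1307 rose, with a median of −0.01. Called or not, the late effect was below 0 in 143 of the 144. Among the 93, effects ran from −2.51 (CD164) to −0.68. The 51 others had effects from −1.99 to 0.14 and adjusted p-values up to 0.691. At an unadjusted limma p under 0.05, 137 of the 144 were lower, against 1826 of all 13137 genes. The 51 came back further, from a median of −1.80 at 72 h to −0.42 at 120 h, against −1.76 and −0.89 in the 93. Their median absolute change from 72 to 120 h was 1.38 against 0.886 in the 93, which widens their error. With each array centred on its median, 1258 of all genes fell and 1276 rose, and the 144 held 134 of those that fell. The count among the 144 was 26 without the 4 h pair or without the 8 h pair. Both are the same fit as the late pairs alone, since 1 early pair adds no spread. Leaving out the 72 h or the 120 h pair leaves 1 late pair, so no count is given for these. Each window holds 2 pairs with 2 residual degrees of freedom in all, which limits what the test can call. The error pools both windows, and with the late pairs alone 26 of the 93 were still called lower.

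At 72 and 120 h both miR-124 levels were below both control levels for 138 of the 144 genes, against 26.9% of all genes. The exceptions were CEBPA, HAMP, HINT3, ID1, LMNB1 and PLAGL2, of which all but ID1 were above the control at 120 h on the probe sets used (HINT3 was below it on another). The test of the late window against the early one called 40 of all genes lower (0.304%) and 213 higher, and 3 of the 144 lower. These were TGFBR3 with a difference of −1.56, EFNA1 with −1.55 and ITPR3 with −1.02. Leaving out any 1 of the 4 pairs leaves 1 pair in a window, so no count of this difference is given for these fits.

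**Figure D3:**
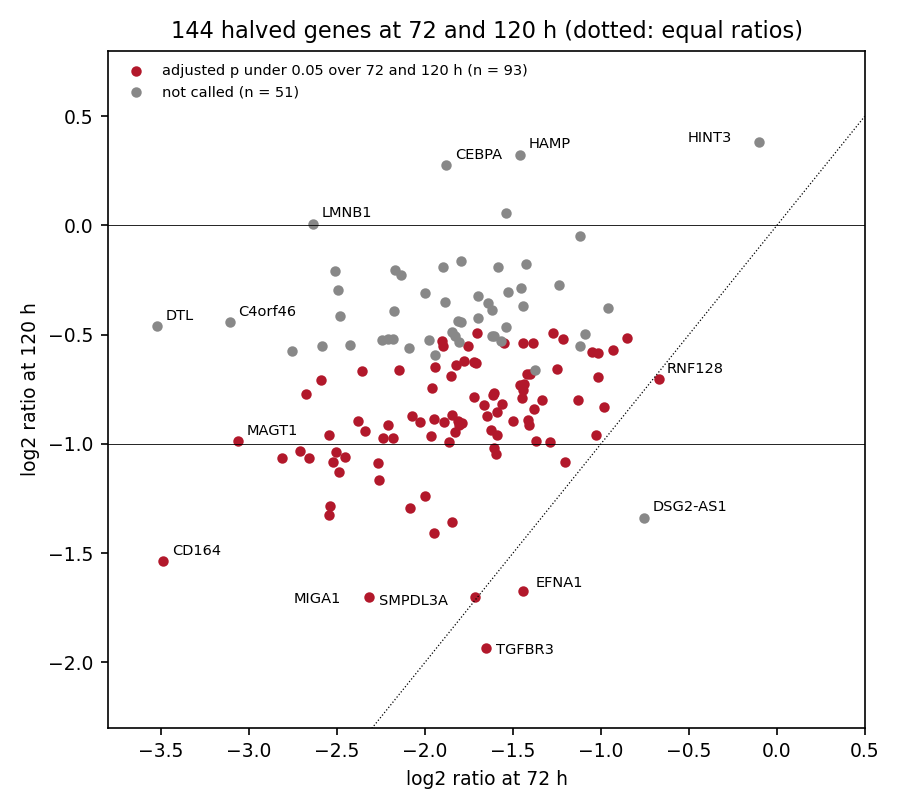
Log2 ratio at 120 h (vertical axis) against the log2 ratio at 72 h (horizontal axis) for the 144 genes, in red for genes that passed the test of the late window and in grey for the others. Nearly all points lie above the diagonal of equal ratios, and 137 lie at −1 or lower on the horizontal axis against 24 on the vertical axis.

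Between 72 and 120 h the genes came back toward the control, and most of that change was on the miR-124 side. The miR-124 level was higher at 120 h than at 72 h in 144 of 144 genes, by a median of 0.92, where 6667 of all 13137 genes were higher, with a median change of 0.00. The control level was lower at 120 h than at 72 h in 96 of the 144, against 6910 of all 13137 genes. The median change was −0.12 in the 144 and −0.01 over all genes. The ratio was higher in 140 of the 144 and lower in 4, against 6508 higher and 6629 lower of all genes. In 139 the rise on the miR-124 arrays was larger than any fall on the control arrays. That count takes in genes whose control level rose, even by more than the miR-124 level, as in TGFBR3. At 72 h 43 genes were at a ratio of −2 or lower, 4-fold below the control or more, and at 120 h there were 0. At 120 h 24 genes were still halved, 59 were partly back, with a ratio above −1 but lower by 1.5-fold or more, and 61 were back to within 1.5-fold of the control or above it. With a fall of 1.5-fold as the mark, 83 of the 144 were still lower, against 624 of all 13137 genes. Only 12 genes were halved at each of the times 16, 24, 32, 72 and 120 h on the probe sets used. These were CD164, GPAT3, RWDD4, TMEM263, MIGA1, DEPDC1B, CMTM6, NEK6, TGFBR3, SMPDL3A, SLC31A1 and PIP5K1B.

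**Figure D4:**
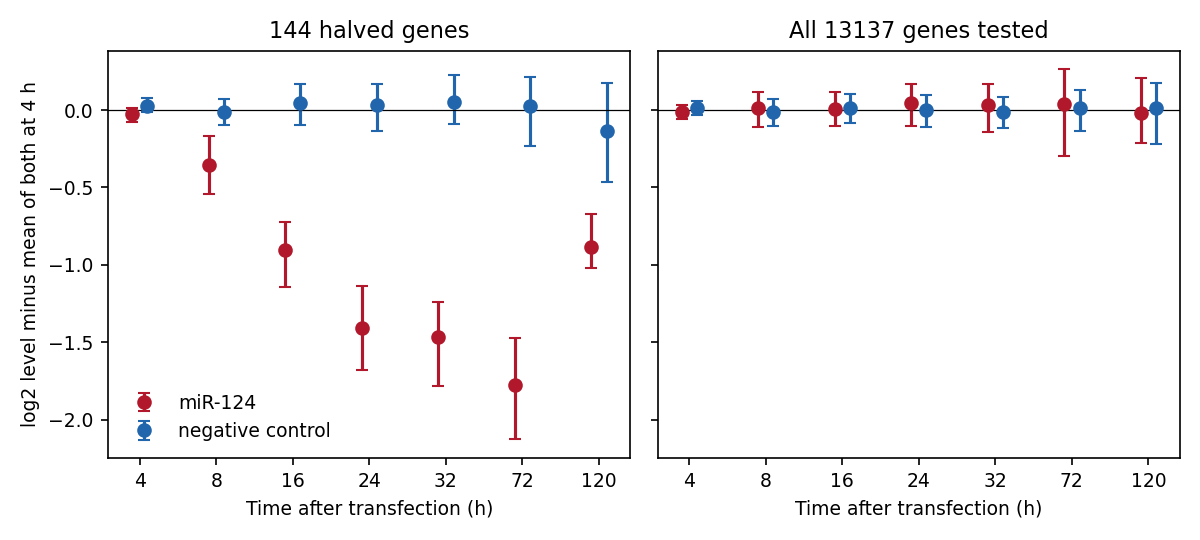
Change of the log2 level from the mean of the 2 arrays at 4 h (vertical axis) against hours after transfection (horizontal axis), as median and quartiles of the 144 genes (left) and of all genes (right), with miR-124 arrays in red and control arrays in blue. On the left the control medians stay between −0.14 and 0.05, and the miR-124 medians go down to −1.78 at 72 h and back to −0.88 at 120 h.

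The largest rises of the ratio from 72 to 120 h were those of DTL, C4orf46, LMNB1, OTUD6B and G3BP1, in each of which the control level was also lower at 120 h. DTL, which directs a ubiquitin ligase to replication proteins, measured 9.62, 9.21, 9.04, 8.50, 8.00, 6.16 and 8.30 on the miR-124 arrays and 9.80, 9.32, 9.93, 9.72, 9.68, 9.68 and 8.76 on the control arrays. Its ratio went from −3.52 to −0.46, of which 2.14 came from the miR-124 arrays and the rest came from the control arrays, which changed by −0.92. C4orf46 measured 8.91, 8.36, 8.26, 7.46, 7.28, 5.51 and 7.58 on the miR-124 arrays and 8.98, 8.64, 8.71, 8.72, 8.66, 8.62 and 8.03 on the control arrays. Its 72 h miR-124 array was the lowest of the 14, and the 120 h control array was lower than the other 6 controls. LMNB1, the B-type lamin of the nuclear envelope, measured 9.78, 9.20, 8.13, 7.58, 7.74, 6.56 and 8.36 on the miR-124 arrays and 9.83, 9.69, 9.37, 9.27, 9.41, 9.20 and 8.35 on the control arrays. At 120 h both arms met, and the control array was the lowest of the 7 controls. The late effects of these genes did not pass the test (adjusted p 0.0915 for C4orf46, 0.0957 for DTL and 0.181 for LMNB1).

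OTUD6B, a deubiquitinase, measured 7.47, 6.92, 6.46, 5.68, 5.79, 4.86 and 6.33 on the miR-124 arrays and 7.23, 7.34, 7.59, 7.52, 7.47, 7.37 and 6.54 on the control arrays. Its 72 h miR-124 array was the lowest and its 120 h control array the lowest control. G3BP1, the core protein of stress granules, measured 11.09, 10.89, 10.19, 9.44, 9.14, 8.46 and 10.15 on the miR-124 arrays and 11.14, 11.03, 11.15, 11.06, 10.95, 10.95 and 10.44 on the control arrays. Here too the 120 h control array was the lowest of the 7, and it was still above the miR-124 array of that time. Late effects were −1.36 ± 0.51 (SE, n = 2 pairs, limma adjusted p = 0.133) for OTUD6B and −1.40 ± 0.47 (SE, n = 2 pairs, limma adjusted p = 0.104) for G3BP1.

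The ratio was lower at 120 h than at 72 h only in DSG2-AS1, TGFBR3, EFNA1 and RNF128, and SMPDL3A was the next, with a change of 0.02. TGFBR3, the co-receptor betaglycan that presents TGF-beta ligands, measured 9.89, 9.48, 8.31, 7.69, 7.63, 7.81 and 9.02 on the miR-124 arrays and 10.01, 9.83, 9.86, 9.38, 9.13, 9.47 and 10.96 on the control arrays. The miR-124 level was higher at 120 h by 1.21, but the control level was higher by 1.49, so the ratio went from −1.66 to −1.94, the lowest of the 144 at 120 h. Its late effect was −1.79 ± 0.13 (SE, n = 2 pairs, limma adjusted p = 0.00393). EFNA1, a membrane-bound ligand of Eph receptors, measured 10.16, 9.65, 8.78, 8.58, 8.36, 8.10 and 8.93 on the miR-124 arrays and 10.14, 9.70, 9.64, 9.64, 9.59, 9.55 and 10.60 on the control arrays. Its control array of 120 h was the highest of the 14, and its late effect was −1.56 ± 0.12 (SE, n = 2 pairs, limma adjusted p = 0.00393). RNF128, a ubiquitin ligase of endosomal membranes, measured 10.46, 9.94, 9.55, 9.39, 9.50, 9.87 and 10.19 on the miR-124 arrays and 10.41, 10.50, 10.50, 10.60, 10.74, 10.54 and 10.89 on the control arrays. The arms stayed apart from 8 h on, and the late effect of −0.69 ± 0.16 (SE, n = 2 pairs, limma adjusted p = 0.043) was among the smallest to pass. SMPDL3A, a phosphodiesterase related to acid sphingomyelinase, measured 7.79, 7.29, 6.62, 6.50, 6.53, 7.23 and 7.42 on the miR-124 arrays and 7.92, 7.97, 7.86, 8.01, 8.47, 8.95 and 9.12 on the control arrays. Both arms were higher at 72 and 120 h than at 16 h, with ratios of −1.72 and −1.70, and the late effect was −1.71 ± 0.15 (SE, n = 2 pairs, limma adjusted p = 0.00535). The lowest ratios at 120 h were those of TGFBR3, MIGA1 (−1.70), SMPDL3A (−1.70), EFNA1 (−1.67) and CD164 (−1.54).

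The 144 genes were sorted by known role into 11 groups and 1 of genes with no assigned role, after the genes were known, so group sizes and medians are a description with no test. First and last times are given for each gene, as the time of the first ratio of −1 or lower and the state at 120 h. Beside each group's count of genes that fell in the late window stand shares of 64.6% of the 144 and 6.17% of all genes.

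**Figure D5:**
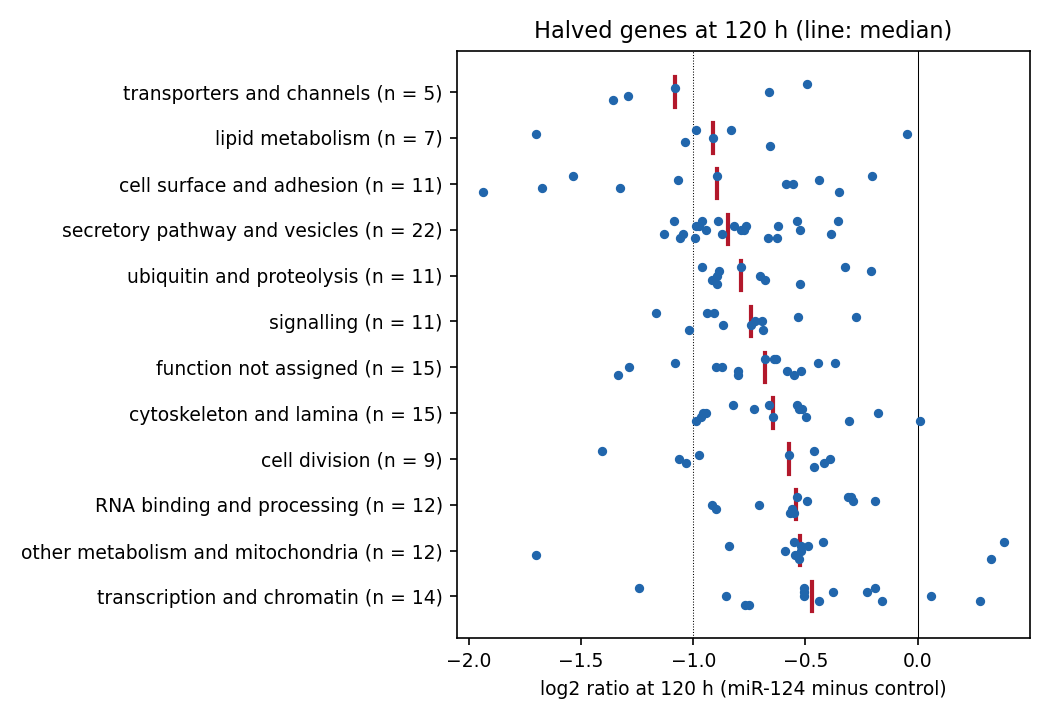
Log2 ratio at 120 h (horizontal axis) for each of the 144 genes, in 12 function groups (vertical axis), with 1 blue point per gene, shifted up or down only to keep points apart, and the group median as a red line. Group medians run from −1.08 in transporters and channels to −0.47 in transcription and chromatin, and the ranges of the groups overlap.

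The 11 genes of the cell surface and adhesion had a median ratio of −1.90 at 72 h and −0.89 at 120 h, and 8 fell in the late window. Beside the receptors and ligands CD164, TGFBR3 and EFNA1 they held ICAM3, an adhesion molecule of leukocytes, PRTG, a receptor of the immunoglobulin family, MPZL3, related to myelin protein zero, and CMTM7, a relative of CMTM6. FERMT2 activates integrins from inside the cell, VANGL1 belongs to planar cell polarity, and MPP7 is a polarity scaffold. PRTG stood at −1.43 over 16 to 32 h, −2.55 at 72 h and −1.32 at 120 h, and ICAM3 at −1.27 over 16 to 32 h, −2.38 at 72 h and −0.89 at 120 h. FERMT2 came back further, from −1.89 at 72 h to −0.35 at 120 h. The ratio first reached −1 at 16 h in CD164, CMTM6, FERMT2, TGFBR3, CMTM7, VANGL1 and MPZL3 and at 24 h in PRTG, ICAM3, EFNA1 and MPP7. At 120 h CD164, CMTM6, TGFBR3, PRTG and EFNA1 were still halved, ICAM3 was partly back, and FERMT2, CMTM7, VANGL1, MPZL3 and MPP7 were back. FERMT2, VANGL1 and MPP7 did not pass the late test (adjusted p 0.0631 to 0.119).

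All 5 transporters and channels were halved at 72 h, and 4 fell in the late window. SLC31A1, the main copper importer, stood at −1.56 over 16 to 32 h, −1.85 at 72 h and −1.36 at 120 h. SLC17A5, which exports sialic acid from lysosomes, stood at −1.14 over 16 to 32 h, −2.08 at 72 h and −1.29 at 120 h. ITPR3, a calcium release channel of the endoplasmic reticulum, was later, with ratios of −0.17, −0.08, −0.78, −0.998, −1.28, −1.2 and −1.08 at the 7 times, and was still halved at 120 h. SLC10A7, of the bile acid carrier family, was first halved at 16 h and partly back at 120 h (−0.66, late adjusted p = 0.0536), and CLCC1, a chloride channel of the endoplasmic reticulum, was first halved at 24 h and back at 120 h (−0.49). SLC31A1 was first halved at 16 h and SLC17A5 at 24 h, and both were still halved at 120 h.

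The secretory pathway and vesicles formed the group with the most genes, 22, of which 19 fell in the late window, with medians of −1.75 at 72 h and −0.85 at 120 h. In the endoplasmic reticulum, RPN1 and MAGT1 serve N-glycosylation, DNAJC1 is a co-chaperone, RRBP1 binds ribosomes, LMAN2L is a lectin-like cargo receptor, and DPY19L1 resembles an enzyme that mannosylates proteins. In the Golgi, RAB2A is a GTPase of traffic from the endoplasmic reticulum, ARFIP1 binds Arf GTPases, GOLM2 is a membrane protein, B4GALT1 adds galactose to glycans, GXYLT1 adds xylose to Notch repeats, and ZDHHC20 palmitoylates proteins. LITAF, SYPL1 (related to synaptophysin), SDCBP (the adaptor syntenin), TXLNA (which binds syntaxins) and TPD52L2 are linked to endosomes and vesicle traffic, and HEATR5A and PRRC1 are counted here too. ANXA5 and ANXA7 bind phospholipids in the presence of calcium, and SPART is a protein of endosomes and lipid droplets. RPN1 stood at −1.11 over 16 to 32 h, −2.45 at 72 h and −1.06 at 120 h, and SYPL1 at −1.21 over 16 to 32 h, −1.60 at 72 h and −1.04 at 120 h. Another SYPL1 probe set above the floor was lower, at −2.77 over 16 to 32 h, −3.06 at 72 h and −1.35 at 120 h. On that one SYPL1 was already halved at 8 h (−1.23), earlier than on the probe set used. ANXA5 stood at −1.38 over 16 to 32 h, −2.27 at 72 h and −1.09 at 120 h, and SDCBP at −1.39 over 16 to 32 h, −2.18 at 72 h and −0.97 at 120 h. RPN1 had the mean nearest to the cutoff of these 4, and it was still halved at 120 h. A halved level was first seen at 16 h in MAGT1, LITAF, ARFIP1, GXYLT1, ANXA7, DPY19L1, RRBP1 and TXLNA and at 24 h in HEATR5A, SDCBP, ANXA5, GOLM2, ZDHHC20, PRRC1, SYPL1, RAB2A, SPART, RPN1, LMAN2L, B4GALT1, TPD52L2 and DNAJC1. At 120 h HEATR5A, ANXA5, SYPL1 and RPN1 were still halved, ARFIP1, TXLNA, RAB2A and LMAN2L were back, and the other 14 were partly back. These were MAGT1, LITAF, GXYLT1, ANXA7, DPY19L1, RRBP1, SDCBP, GOLM2, ZDHHC20, PRRC1, SPART, B4GALT1, TPD52L2 and DNAJC1. ARFIP1, TXLNA and RAB2A did not pass the late test (adjusted p 0.057 to 0.0706).

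Of 15 genes of the cytoskeleton and nuclear lamina, 11 fell in the late window, and none was still halved at 120 h. On actin act CFL2, a cofilin that severs filaments, CNN3, a calponin, AIF1L and EFHD2, which bind actin and calcium, RAI14, an actin-associated ankyrin-repeat protein, and COBLL1. TUBB6 is a beta-tubulin, DCTN4 a subunit of dynactin, DYNLT3 a light chain of dynein, SPAG16 a protein of motile cilia, SEPTIN11 a septin, SYNC an intermediate filament protein, and CAPN2 the catalytic subunit of a calcium-activated protease. TUBB6 stood at −1.48 over 16 to 32 h, −1.29 at 72 h and −0.99 at 120 h, and CFL2 at −1.41 over 16 to 32 h, −2.34 at 72 h and −0.94 at 120 h. CAPN2 stood at −1.41 over 16 to 32 h, −0.85 at 72 h and −0.52 at 120 h. EFHD2 stood at −1.15 over 16 to 32 h, −1.43 at 72 h and −0.18 at 120 h, but its other probe set gave 0.22, 0.54 and 0.20. The cutoff was first met at 8 h in COBLL1, at 16 h in GAS2L1, LMNB1, TUBB6, DCTN4, AIF1L and EFHD2, at 24 h in CAPN2, CFL2, RAI14, DYNLT3, SEPTIN11, CNN3 and SYNC, and at 32 h in SPAG16. At 120 h GAS2L1, TUBB6, CFL2, DCTN4, RAI14, DYNLT3, CNN3 and SPAG16 were partly back, and COBLL1, LMNB1, CAPN2, AIF1L, EFHD2, SEPTIN11 and SYNC were back. COBLL1, LMNB1, EFHD2 and SYNC did not pass the late test (adjusted p 0.0595 to 0.181).

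Among 11 signalling genes 9 fell in the late window, and 9 were still lower by 1.5-fold or more at 120 h. GNA13 is the alpha subunit of a heterotrimeric G protein, and RAP1B and RRAS2 are Ras-family GTPases. TAB2 is an adaptor of the kinase TAK1, OXSR1 is a kinase of the ion-transport stress response, PIP5K1B is a kinase and MTMR6 a phosphatase of phosphoinositides. PTPN12 is a tyrosine phosphatase, PPP4R1 a regulatory subunit of protein phosphatase 4, PDCD10 a partner of kinases of the germinal-centre family, and PHLDA2 an imprinted protein with a pleckstrin homology domain. RRAS2 stood at −1.23 over 16 to 32 h, −1.61 at 72 h and −1.02 at 120 h. PIP5K1B stood at −1.48 over 16 to 32 h, −2.26 at 72 h and −1.17 at 120 h. GNA13 stood at −1.51 over 16 to 32 h, −1.79 at 72 h and −0.91 at 120 h, and TAB2 at −1.58 over 16 to 32 h, −1.62 at 72 h and −0.94 at 120 h. The ratio first reached −1 at 16 h in TAB2, PIP5K1B, RAP1B and MTMR6 and at 24 h in GNA13, RRAS2, PHLDA2, PDCD10, PTPN12, PPP4R1 and OXSR1. At 120 h PIP5K1B and RRAS2 were still halved, TAB2, GNA13, RAP1B, PHLDA2, PDCD10, PTPN12 and OXSR1 were partly back, and MTMR6 and PPP4R1 were back. The last pair did not pass the late test (adjusted p 0.0536 to 0.0791).

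The 9 genes of cell division had the lowest group median at 72 h, −2.48, and one of −0.57 at 120 h. CDK2 drives entry into S phase, NEK6 is a mitotic kinase, CDKN3 is a phosphatase of cyclin-dependent kinases, and CDC27 is a subunit of the anaphase-promoting complex. SLBP binds the stem-loop of histone messenger RNAs, OIP5 helps to load the centromeric histone, SEH1L is a nucleoporin of kinetochores, and DTL and DEPDC1B complete the group. CDK2 stood at −1.59 over 16 to 32 h, −2.24 at 72 h and −0.97 at 120 h. NEK6 stood at −1.64 over 16 to 32 h, −1.95 at 72 h and −1.41 at 120 h, and CDKN3 at −1.13 over 16 to 32 h, −2.81 at 72 h and −1.06 at 120 h. Another NEK6 probe set above the floor gave −1.58 over 16 to 32 h, but the rest above the floor gave −0.05, 0.18 and 0.07. SLBP stood at −1.57 over 16 to 32 h, −2.48 at 72 h and −0.42 at 120 h, and OIP5 at −1.22 over 16 to 32 h, −2.76 at 72 h and −0.57 at 120 h. A halved level was first seen at 16 h in DEPDC1B, NEK6 and CDK2 and at 24 h in SEH1L, SLBP, DTL, OIP5, CDKN3 and CDC27. At 120 h DEPDC1B, NEK6 and CDKN3 were still halved, CDK2 was partly back, and SEH1L, SLBP, DTL, OIP5 and CDC27 were back. All 9 were below the control at 120 h, the highest at −0.39. The 4 genes still lower by 1.5-fold or more at 120 h were those that fell in the late window. The 5 that were back, within 1.5-fold of the control, did not pass (adjusted p 0.0518 to 0.0957). In a list of cell cycle genes of which 72 were measured, 68 of them outside the 144, the median over genes moved from −1.69 (72 h) to −0.48 (120 h), and 30 fell and 1 rose in the late window. Of the 68 outside the 144, 28 fell, where 6.17% of all 13137 genes fell and 9.95% rose.

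Of 14 genes of transcription and chromatin only 4 fell in the late window, and 10 were back at 120 h, when the group median was −0.47. CEBPA is a liver-enriched transcription factor, ELK3 an ETS factor, TCF3 an E protein, ID1 an inhibitor of E proteins, CBFB the partner of RUNX factors, and PLAGL2 a zinc finger factor. CDK8 is a kinase of the Mediator complex, EAF1 works with the elongation factor ELL, ATF7IP2 resembles a partner of a histone methyltransferase, ZNF101, ZNF140, ZNF267 and ZNF587B are zinc finger proteins, and QSER1 is a nuclear protein. CEBPA had ratios of −0.65, 0.24, −0.997, −0.94, −1.10, −1.88 and 0.28 at the 7 times and so was below the control at 4 h and above it at 120 h. ZNF101 stood at −1.21 over 16 to 32 h, −2.0 at 72 h and −1.24 at 120 h, and CBFB at −1.45 over 16 to 32 h, −1.83 at 72 h and −0.51 at 120 h. ID1 stood at −1.36 over 16 to 32 h, −2.14 at 72 h and −0.23 at 120 h, and PLAGL2 at −1.05 over 16 to 32 h, −1.54 at 72 h and 0.06 at 120 h. The other PLAGL2 probe set gave −0.06 over 16 to 32 h, −0.48 at 72 h and 0.01 at 120 h. The probe sets used for TCF3 and ZNF587B are of the kind that may bind other transcripts. Other TCF3 probe sets above the floor ranged from −1.59 to 0.10 over 16 to 32 h. The cutoff was first met at 16 h in ZNF267 and CBFB, at 24 h in ELK3, ID1, CDK8, EAF1, ZNF101, ZNF587B, ATF7IP2, QSER1, TCF3, ZNF140 and PLAGL2, and at 32 h in CEBPA. At 120 h ZNF101 was still halved, CDK8, EAF1 and TCF3 were partly back, and ZNF267, CBFB, ELK3, ID1, ZNF587B, ATF7IP2, QSER1, ZNF140, PLAGL2 and CEBPA were back. The 10 that did not pass the late test, all of those that were back, had adjusted p-values from 0.0514 to 0.347.

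Of 12 genes of RNA binding and processing 7 fell in the late window, and none was still halved at 120 h. PTBP3 and MBNL1 regulate splicing, RBM47 is a cofactor of RNA editing, RBMS1 and TSN bind RNA, and YTHDF1 reads methylated adenosines. SNRPB2 is part of the U2 snRNP, GEMIN5 helps to assemble snRNPs, GRSF1 belongs to mitochondrial RNA granules, and TRUB1 and GON7 serve the modification of RNA. RBM47 stood at −1.52 over 16 to 32 h, −1.71 at 72 h and −0.49 at 120 h, and TSN at −1.44 over 16 to 32 h, −2.0 at 72 h and −0.31 at 120 h. PTBP3 stood at −1.02 over 16 to 32 h, −1.44 at 72 h and −0.54 at 120 h. Only RBM47 and YTHDF1 were halved at 16 h, and G3BP1, TSN, TRUB1, SNRPB2, GRSF1, RBMS1, GON7, MBNL1, GEMIN5 and PTBP3 followed at 24 h. At 120 h GRSF1, RBMS1 and GON7 were partly back, and RBM47, G3BP1, TSN, TRUB1, SNRPB2, YTHDF1, MBNL1, GEMIN5 and PTBP3 were back. G3BP1, TSN, SNRPB2, YTHDF1 and GEMIN5 did not pass the late test (adjusted p 0.05002 to 0.119).

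In the group of ubiquitin and proteolysis, with 11 genes, 8 fell in the late window and none was still halved at 120 h. RNF128 and RNF141 carry RING domains, TRIM14 is a TRIM protein of antiviral signalling, and WSB2, KLHL14, KLHDC10 and GMCL1 are of the families that bring substrates to cullin ligases. OTUD4, OTUD6B and MINDY2 belong to families of deubiquitinases, and CASP6 is a caspase. KLHL14 stood at −1.60 over 16 to 32 h, −2.21 at 72 h and −0.92 at 120 h. RNF141 stood at −1.37 over 16 to 32 h, −1.41 at 72 h and −0.68 at 120 h, and TRIM14 at −1.48 over 16 to 32 h, −2.25 at 72 h and −0.53 at 120 h. The other RNF141 probe set above the floor gave −0.17, 0.18 and −0.16. That of TRIM14 gave −0.38, −0.69 and −0.31. The ratio first reached −1 at 16 h in KLHL14, OTUD6B and RNF141 and at 24 h in TRIM14, OTUD4, WSB2, GMCL1, KLHDC10, CASP6, RNF128 and MINDY2. At 120 h KLHL14, RNF141, OTUD4, WSB2, GMCL1, KLHDC10, RNF128 and MINDY2 were partly back, and OTUD6B, TRIM14 and CASP6 were back. OTUD6B, TRIM14 and CASP6 did not pass the late test (adjusted p 0.0605 to 0.133).

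Of 7 genes of lipid metabolism 6 fell in the late window, and the group median at 120 h was −0.91. GPAT3 and LPCAT3 acylate glycerolipids, ACSL1 activates fatty acids, PLIN3 coats lipid droplets, GLTP moves glycolipids between membranes, and ABHD3 is a phospholipase. GLTP stood at −1.47 over 16 to 32 h, −1.80 at 72 h and −0.91 at 120 h. PLIN3 stood at −1.32 over 16 to 32 h, −1.37 at 72 h and −0.99 at 120 h, and ABHD3 at −1.02 over 16 to 32 h, −0.98 at 72 h and −0.83 at 120 h. ACSL1, the fatty acid enzyme, was the exception, at −1.40 over 16 to 32 h, −1.12 at 72 h and −0.05 at 120 h (late adjusted p = 0.185). A halved level was first seen at 16 h in GPAT3, SMPDL3A, GLTP, ACSL1 and PLIN3, at 24 h in LPCAT3, and at 32 h in ABHD3. At 120 h GPAT3 and SMPDL3A were still halved, GLTP, PLIN3, ABHD3 and LPCAT3 were partly back, and ACSL1 was back.

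Other metabolic and mitochondrial genes numbered 12, and 3 fell in the late window, MIGA1, QDPR and MAOB. GCH1 makes the first step of tetrahydrobiopterin synthesis and QDPR regenerates this cofactor, so enzymes of both its synthesis and its recycling were among the halved genes. MAOB oxidizes amines, GCSH carries the intermediate of glycine cleavage, ADI1 acts in methionine salvage, PGM2 converts sugar phosphates, CARNMT1 methylates carnosine, NUDT19 is a Nudix hydrolase, HINT3 a nucleotide hydrolase, LYRM1 a small LYR-motif protein, and HAMP is hepcidin, the hormone that limits iron export. GCH1 stood at −1.17 over 16 to 32 h, −1.94 at 72 h and −0.59 at 120 h (late adjusted p = 0.0511), and QDPR at −1.23 over 16 to 32 h, −1.38 at 72 h and −0.84 at 120 h. HAMP had ratios of 0.08, −0.14, −1.25, −1.36, −0.95, −1.46 and 0.32 at the 7 times, and HINT3 had ratios of 0.10, −0.48, −0.93, −1.05, −1.11, −0.10 and 0.38. On the probe sets used both were above the control at 120 h, but another HINT3 probe set above the floor gave −1.38 at 72 h and −0.86 at 120 h. Their late effects on the probe sets used did not pass (adjusted p 0.399 and 0.691). The cutoff was first met at 16 h in MIGA1 and HAMP and at 24 h in LYRM1, ADI1, QDPR, NUDT19, CARNMT1, GCH1, MAOB, PGM2, HINT3 and GCSH. At 120 h MIGA1 was still halved, QDPR and GCH1 were partly back, and LYRM1, ADI1, NUDT19, CARNMT1, HAMP, MAOB, PGM2, HINT3 and GCSH were back. The adjusted p-values of the 9 that did not pass the late test started at 0.0511.

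The 15 genes with no assigned role included RWDD4, TMEM263, C4orf46 and DSG2-AS1, and 10 of them fell in the late window. The others were LRRC58, LINC00526, TMEM45A, LYSMD3, KIAA1671, CCDC117, AMMECR1, JPT2, NHLRC2, TMEM87B and COMMD5. LINC00526, a long non-coding RNA, stood at −1.33 over 16 to 32 h, −2.07 at 72 h and −0.87 at 120 h. LRRC58, a leucine-rich repeat protein, stood at −1.37 over 16 to 32 h, −2.18 at 72 h and −0.52 at 120 h, and LYSMD3, a LysM-domain protein, at −1.17 over 16 to 32 h, −1.12 at 72 h and −0.55 at 120 h. The ratio first reached −1 at 8 h in DSG2-AS1, at 16 h in RWDD4, TMEM263, LYSMD3 and COMMD5, and at 24 h in LRRC58, LINC00526, TMEM45A, KIAA1671, CCDC117, AMMECR1, JPT2, NHLRC2, TMEM87B and C4orf46. At 120 h RWDD4, TMEM263 and DSG2-AS1 were still halved, LINC00526, TMEM45A, CCDC117, AMMECR1, JPT2, NHLRC2 and TMEM87B were partly back, and LRRC58, LYSMD3, KIAA1671, COMMD5 and C4orf46 were back. LRRC58, LYSMD3, KIAA1671, DSG2-AS1 and C4orf46 did not pass the late test (adjusted p 0.059 to 0.162).

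Of the 33 measured genes in a list of miR-124 targets reported in the literature, 10 (30.3%) were among the halved genes, against 1.10% of all genes. The list was drawn up with earlier results of these data known, and reports on these cells may have fed it, so it is not independent evidence. The 10 were CD164, LITAF, NEK6, LMNB1, CAPN2, ELK3, SYPL1, B4GALT1, CEBPA and DNAJC1, of which CD164 and LITAF had the lowest mean ratios on the probe sets used. Another SYPL1 probe set had a mean ratio of −2.77. In the late window 17 of the 33 fell and 0 rose, with a median effect of −0.80, and among the 23 that were not halved 10 fell, with a median of −0.67. Over all 13137 genes 6.17% fell and 9.95% rose. Another 10 lists held from 0 to 4 halved genes each. The 4 of the RNA binding list, 71 measured, were RBM47, G3BP1, MBNL1 and PTBP3, and those of the cell cycle list were NEK6, CDK2, LMNB1 and CDC27. The lists of vesicle traffic (LITAF, SYPL1 and RAB2A of 70), endoplasmic reticulum and Golgi (RPN1, B4GALT1 and DNAJC1 of 77), lipid synthesis (ACSL1, PLIN3 and LPCAT3 of 63) and signalling (RAP1B, RRAS2 and PTPN12 of 92) held 3 each. The transcription list held ELK3 and CEBPA of 71, that of the cell surface CD164 of 65, that of ubiquitin RNF128 of 69, and that of mitochondrial metabolism 0 of 68. In these lists other than that of the cell cycle, medians of the late effect lay between −0.17 and 0.11, against −0.01 over all genes.

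Many genes have several probe sets, and these did not always move alike. Of the 144 genes 43 had 1 probe set with their symbol alone, and 83 had another one above the floor. Of the 140 such other probe sets 57 were also halved over 16 to 32 h and 83 were lower by 1.5-fold or more. At 72 h 127 of the 140 were below the control and at 120 h 129 were, with medians of −1.15 and −0.48. In 40 genes at least 1 other probe set stayed within 1.5-fold of the control over 16 to 32 h, and in 11 at least 1 was above it. With the mean of all probe sets of a gene in place of the brightest, 76 genes met the cutoff, 72 of them among the 144, and the median ratio at 72 h of the 131 of the 144 that were still above the floor was −1.44. For G3BP1, whose probe set used gave −2.49 at 72 h, the 4 others above the floor gave −2.05, −1.37, −0.64 and −0.05, and for MAGT1 the 2 others gave −2.27 and −3.36 beside −3.06.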

How the data were processed

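The study measured RNA of HepG2 cells on 14 arrays, 7 after miR-124 and 7 after control transfection. The deposited values are log2 levels, and RMA is the tool named per the submitters' processing notes; its version and probe mapping are not given in the sources used here. From 54675 probe sets, 62 control ones were dropped and 41091 with 1 symbol in the platform annotation were kept (1801 have several, 11721 have none listed). The brightest per gene was used, with a floor at the median level of 6.18, leaving 13137 genes. Counts and depth do not apply to arrays, and the number of arrays limits the precision.

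Ratios were taken within each time. limma 3.58.1 (R 4.3.3; lmFit, eBayes) was fitted to the 4 ratios of 4, 8, 72 and 120 h, with an early (4, 8 h) and a late (72, 120 h) coefficient and 2 residual degrees of freedom, two-sided, Benjamini-Hochberg adjustment over 13137 genes, threshold 0.05, and was tested on simulated data. The time of an array pairs it with the other transfection: deviations of same-time arrays correlated at 0.206 to 0.480, over 0.1 in 7 of 7 pairs. Single times have 1 array per transfection and no test.

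The 144 genes and the 12 gene lists were chosen with earlier results of these data known, and function groups were written with the 144 genes known. Levels on every array are given for the 10 lowest mean ratios, genes first halved at 4 or 8 h, the 5 largest rises and 5 largest falls of the ratio from 72 to 120 h, and the 5 lowest ratios at 120 h, 21 genes in all. The 3 genes on each side of the cutoff are named with their means, and in each list the 2 halved genes with the lowest mean ratio. Alternatives covered scaling, filter, probe-set choice, cutoffs, pairing and left-out times. The result of 1 gene list is not reported here, and seed matches were not analysed here.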

Additional observations from a re-analysis of the deposited data

Results flagged for a closer look

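On the miR-124 array of 4 h the 18S ribosomal RNA control probe sets read 11.05 and the poly-A spike probe sets 6.877, each far from the other 6 miR-124 arrays. On the control array of 120 h, 4 of the halved genes were far below their other 6 control arrays, C4orf46 at 8.029, G3BP1 at 10.44, LMNB1 at 8.354 and OTUD6B at 6.538. They were looked at because their ratios rose most from 72 to 120 h, to which a low control array adds. In all, 6 of 48 sets of 7 arrays were far from the rest in this way, where chance gives about 1 in 20 for sets not chosen on their values. The 4 genes were chosen by a measure that a low control array at 120 h raises, so their number is not set against that rate. The ratio was lower in the late window than in the early one for TGFBR3 (difference −1.562), EFNA1 (−1.548) and ITPR3 (−1.019), each with an adjusted p under 0.05 (limma).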

How the results depend on the processing

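Among the 144 genes 93 were called lower in the late window. The count was 111 with no replicate block (time not used to pair the arrays), 132 in a joint fit over 7 times, 134 with arrays centred, 110 after quantile normalization, 100 with no floor, 74 of the 131 still above the floor with probe sets averaged, 26 from the late pairs alone, and 26 to 142 with 1 time left out. Of all genes 810 were lower and 1307 higher; the joint fit gave 1660 and 2161, centring 1258 lower, the late pairs alone 129 and 340, and leaving out 1 time 129 to 2344 lower and 340 to 2038 higher. For the late minus early difference, 3 of the 144, and 40 lower and 213 higher of all genes, were called. The joint fit gave 25, 433 and 1088, centring 36, 214 and 335, no floor 7, 106 and 439, quantile normalization 8 of the 144 and 83 lower, no replicate block 358 higher, and leaving out 1 time 0 to 131, 0 to 1685 and 0 to 1540 (35, 383 and 944 without 72 h). The early window called 0 genes in each alternative run. The number of halved genes was 231 at a cutoff of −0.8, 83 at −1.2, 76 with probe sets averaged (median at 72 h −1.44) and 105 to 196 with 1 of its 3 times left out. With 1.5-fold in place of halving, 137 in place of 50 had passed by 16 h and 83 in place of 24 were lower at 120 h. On its other probe set DSG2-AS1 read 0.20 at 72 h, a reversed sign. The cause of these changes was not tested. Late calls rest on 2 pairs, and leaving out a pair also leaves fewer degrees of freedom.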
